A study of Mus musculus with 6 samples.

Results

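MHC class I molecules carry peptides cut from a cell's own proteins to its surface, where CD8 T cells read them. A heavy chain, here from H2-D1 or H2-K1, pairs with beta-2-microglobulin (B2m). Peptides are cut by the proteasome, pumped into the endoplasmic reticulum by the transporter of Tap1 and Tap2, and handed to the heavy chain with the help of tapasin (Tapbp). Under interferon-gamma, cells swap the catalytic subunits of the proteasome for Psmb8, Psmb9 and Psmb10 and cap it with an activator that contains Psme1. These 10 genes were followed in the choroid plexus, the tissue that makes cerebrospinal fluid, through all probe sets annotated to 1 of them alone. That gave 27 of the 45037 probe sets that are not array controls. The members were taken by name, with earlier results of these data known. All 10 genes were bright enough to test, as were 12681 of 18193 genes in all.

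The study compared 3 male CD1 mice aged 18 months with 3 male CD1 mice aged 2 months, untreated as far as the labels state, by 1 Affymetrix array per mouse. Both lateral ventricle plexuses of an animal went into its sample, so that the spread between arrays is one between animals. CD1 is an outbred stock, H2-D1 and H2-K1 are among the most variable genes between mice, and the labels do not give the H2 type of any animal. All levels below are log2 intensities after RMA, the standard background correction, normalization and probe summary for these arrays, and differences are 18 months minus 2 months on that scale. Levels of different probe sets are not comparable with each other. The samples had the make-up of plexus: all 8 epithelial marker genes named on the array (of 10 listed) lay above the filter, with summed linear intensities of 54804 to 55975 at 18 months and 55171 to 59318 at 2 months. Neuron marker signal was uneven, with summed intensities of 9 such genes of 2074, 4446 and 7623 in 18-month replicates 1 to 3 and 3502, 2067 and 7308 in 2-month replicates 1 to 3.

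Both heavy chain genes, their light chain B2m and the immunoproteasome subunit gene Psmb8 had higher levels in all 3 mice at 18 months than in any mouse at 2 months. The transporter genes, tapasin and Psmb9 overlapped between ages, and Psmb10 and Psme1 had mean differences below 0. None of the 10 genes passed the test across all genes (limma, Benjamini-Hochberg adjusted p under 0.05), and neither did any other gene, so that 0% of the 12681 tested were called. At an unadjusted p under 0.05, 510 genes were higher and 384 lower. Of the 10 members, 8 differences lay above 0, against 50.4% of all genes tested. By the unadjusted p, 3 members were higher, against 4.02% of all genes, and 0 were lower, against 3.03%. The ages did not overlap, with 18 months higher, for 4 of the 10, against 7.06% of all genes. Both counts include H2-D1 and H2-K1, which stand on probe sets that also match other transcripts, so they may not be separate signals. The median difference of the 10 was 0.33, and that of all genes tested was 0.00. The median of the 10 became 0.20 without 18-month replicate 2. These are bulk samples, in which more cells of a kind that expresses class I and more RNA per cell cannot be told apart.

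**Figure D1:**
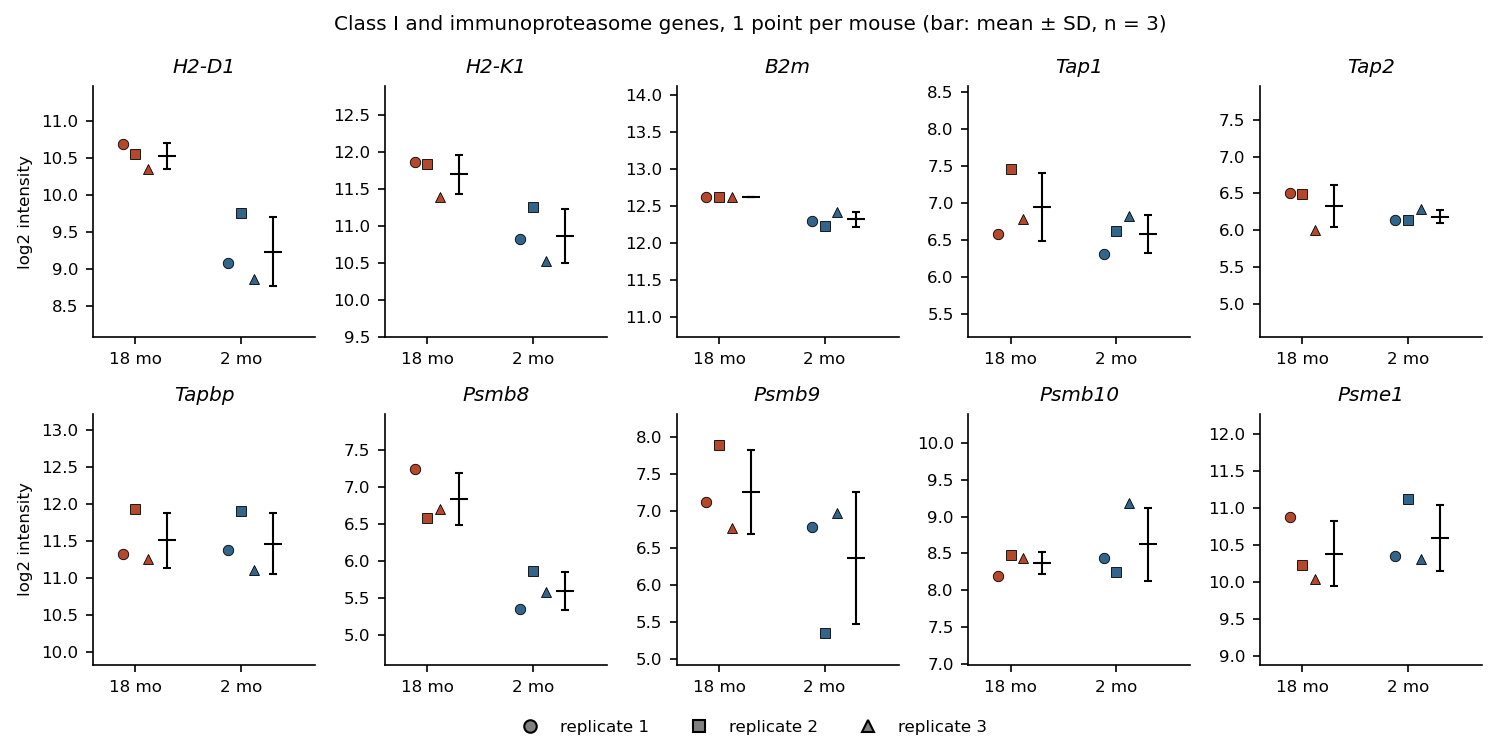
Log2 intensity of the 10 genes in each mouse (y axis, the same span of log2 units in every panel), with the 18-month mice left in red and the 2-month mice right in blue. The marker shape gives the replicate number and the bar the mean ± SD (n = 3). H2-D1, H2-K1, B2m and Psmb8 have no overlap between ages, and the other 6 genes do.

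H2-D1 encodes a classical class I heavy chain, the part of the molecule that holds the peptide. Its level was 10.69, 10.55 and 10.35 in the 18-month mice and 9.08, 9.76 and 8.86 in the 2-month mice. Even the lowest 18-month mouse lay above the highest 2-month mouse, and the spread was wider at 2 months. The difference was 1.30 (SE 0.27, 95% confidence interval 0.65 to 1.94), or 2.46-fold, with a limma adjusted p of 0.416. H2-K1, another classical heavy chain gene, had 11.86, 11.84 and 11.39 at 18 months against 10.81, 11.26 and 10.52 at 2 months. The ages were again apart, by a narrow margin between 18-month replicate 3 and 2-month replicate 2. The difference was 0.83 (SE 0.25, interval 0.23 to 1.44), or 1.78-fold, with a limma adjusted p of 0.620.

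The start regions of the 4 genes whose ages did not overlap are shown because class I genes are known targets of interferon and NF-kappaB signalling through short sites there. Each is the 250 bases before the start in RefSeq, assembly GRCm38.p6, read 5′ to 3′ on the gene's strand, with the first of the windows listed for H2-K1. Capitals mark matches on either strand to the interferon-gamma site GAS (TTCNNNGAA), to the core of the interferon regulatory factor site (AANNGAAA), to the NF-kappaB site of class I genes (GGGATTCCC) or to the CRE site (TGACGTCA). H2-D1 lies on the plus strand at chr17:35262844-35263093, H2-K1 on the minus strand at chr17:34000348-34000597, B2m on the plus strand at chr2:122147437-122147686 and Psmb8 on the plus strand at chr17:34197945-34198194.
H2-D1: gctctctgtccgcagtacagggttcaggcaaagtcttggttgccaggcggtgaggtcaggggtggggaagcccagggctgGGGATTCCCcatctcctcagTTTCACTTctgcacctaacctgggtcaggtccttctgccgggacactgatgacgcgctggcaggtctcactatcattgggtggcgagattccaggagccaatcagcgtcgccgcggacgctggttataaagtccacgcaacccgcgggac
H2-K1: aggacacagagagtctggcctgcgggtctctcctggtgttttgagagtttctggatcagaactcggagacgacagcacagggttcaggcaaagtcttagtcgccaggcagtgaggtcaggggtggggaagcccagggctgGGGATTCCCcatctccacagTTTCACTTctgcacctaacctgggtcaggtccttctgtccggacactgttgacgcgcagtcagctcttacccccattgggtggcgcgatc
B2m: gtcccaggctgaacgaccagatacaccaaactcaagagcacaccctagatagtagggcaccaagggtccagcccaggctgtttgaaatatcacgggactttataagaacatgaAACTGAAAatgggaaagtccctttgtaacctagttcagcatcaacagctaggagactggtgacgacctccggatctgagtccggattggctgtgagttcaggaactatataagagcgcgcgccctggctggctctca
Psmb8: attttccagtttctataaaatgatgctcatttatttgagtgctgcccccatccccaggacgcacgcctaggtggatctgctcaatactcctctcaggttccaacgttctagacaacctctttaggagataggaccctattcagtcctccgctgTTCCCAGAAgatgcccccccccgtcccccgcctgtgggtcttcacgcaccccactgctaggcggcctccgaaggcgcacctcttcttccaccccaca

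The H2-D1 and H2-K1 windows are near copies: shifted by 60 bases and laid side by side without gaps, 166 of 190 bases (87.4%) were the same. Both hold the NF-kappaB match, 170 bases before the start of H2-D1 and 110 before that of H2-K1, and both hold an interferon regulatory factor match next to it, at 150 and 90 bases. The NF-kappaB letters occurred in 0.301% of the 32851 windows of this length. These letters are the site known from class I genes, and they were chosen after the windows were seen. Their match in these near copies was therefore likely in advance, and the share is no test of it. B2m holds the regulatory factor match 137 bases before its start, and Psmb8 the GAS match 97 bases before its own. The regulatory factor core is common, at 21.3% of all windows, and the GAS letters occurred in 7.02%. Of the 9 members with a window (Tap2 is named only), 3 held the regulatory factor core, 2 the NF-kappaB letters, 1 the GAS letters and 0 the CRE letters (1.55% of all windows). The CCAAT box, left in lower case, was in 6 of the 9 windows and 33.85% of all. These 6 are not independent, since the overlapping Tap1 and Psmb9 windows hold the same box and the H2-D1 and H2-K1 windows are near copies. The marked matches do not overlap each other. A match is only a run of letters, and whether a factor bound there was not measured.

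Heavy chain genes resemble one another, and most of their probe sets carry the suffix _x_at, by which Affymetrix marks probes that also match other transcripts. Of the 13 probe sets for H2-D1 and H2-K1, 11 were of this kind, against 5.42% of all probe sets on the array that are not controls. The probe set that stood for H2-D1 (1451784_x_at) and a bright one for H2-K1 (1451931_x_at) had nearly the same profile: after each was centred on its mean they differed by at most 0.13 in any mouse, while the H2-K1 one spanned 1.74. How much signal the genes share on the array was not tested. The brightest H2-K1 probe set (1425336_x_at) differed from the H2-D1 one by up to 0.36, and another bright one (1427746_x_at) by up to 0.65 over a span of 1.49. A further 3 probe sets are annotated to a member together with another gene and were not used.

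H2-D1 also has a probe set without that suffix above the filter, 1426324_at. It had 7.39, 7.64 and 8.80 at 18 months against 5.31, 5.98 and 6.37 at 2 months. This gave the largest difference of the 27, 2.06 (SE 0.44, interval 1.00 to 3.12), or 4.16-fold, with the ages apart (limma over 27022 probe sets, adjusted p = 0.523). Its order of mice was not that of the bright sets 1451784_x_at and 1425545_x_at, for 18-month replicate 3 was its highest mouse and their lowest of that age. After centring it differed from 1451784_x_at by up to 1.42 in 1 mouse. Among the 5 other H2-D1 probe sets above the filter beyond these 2 the differences ran from 0.08 (1452544_x_at) to 1.29 (1425545_x_at), and 4 of the 5 had the ages apart. The 2 H2-D1 probe sets below the filter gave 0.39 (1425614_x_at) and -0.12 (1451934_at). The 4 H2-K1 probe sets gave 0.83, 1.22, 0.81 and, for the dimmest (1450534_x_at), 0.22, the only 1 of them whose ages overlapped.

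**Figure D2:**
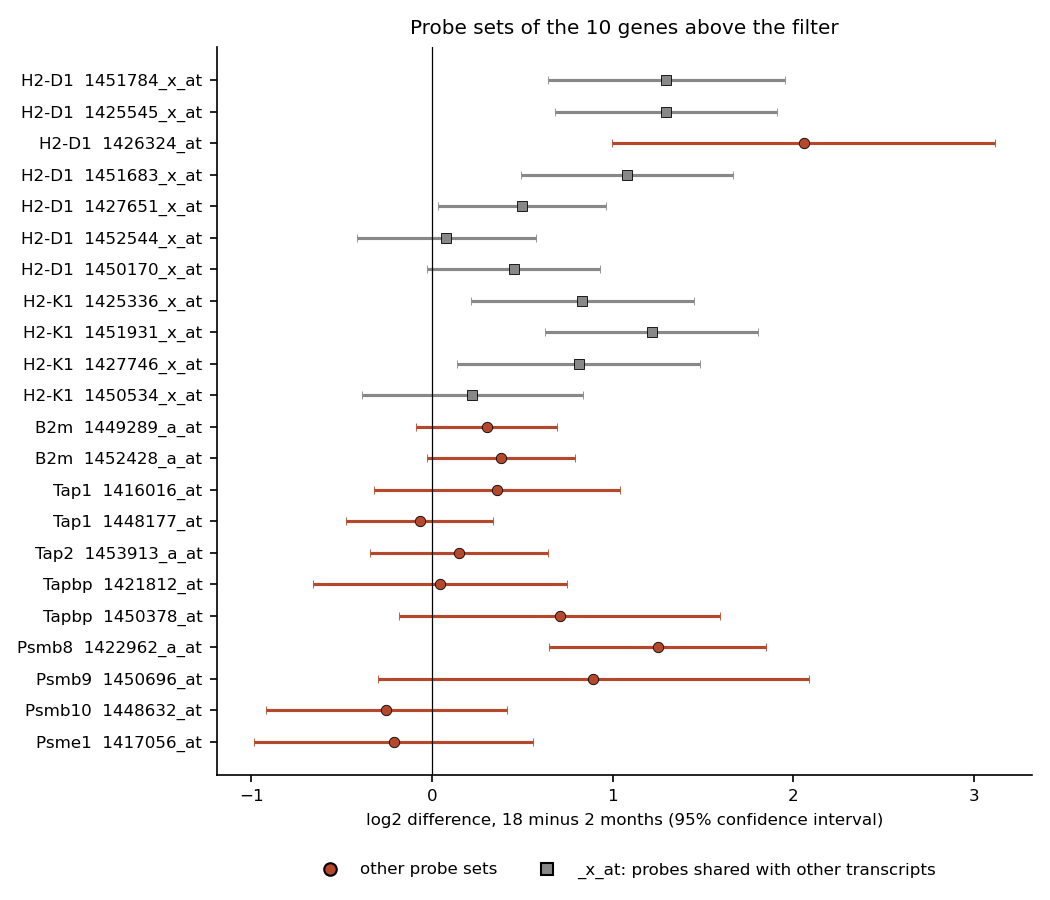
Log2 difference, 18 minus 2 months (x axis), with its 95% confidence interval for each of the 22 probe sets above the filter, grouped by gene and brightest first. Grey squares are _x_at probe sets and red circles the others. Of the 22, 19 lie above 0, and the intervals of Psmb8 and of most H2-D1 and H2-K1 sets leave out 0 before any adjustment.

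Over the 27 probe sets, 22 passed the filter. Of these 22, 19 differences were above 0, against 50.1% of all 27022 probe sets tested. By the unadjusted p, 9 were higher, all from H2-D1, H2-K1 and Psmb8, against 3.66% of all. In 12 of the 22 the ages did not overlap with 18 months higher, against 6.67% of all. By the adjusted p, 0 of the 22 were called, against 1 probe set (0.0037%) in the whole table. Probe sets of 1 gene are not independent, and 10 of the 22 are _x_at sets that may also read other transcripts. These counts therefore rest on few genes, and H2-D1 and H2-K1 may not be separate signals.

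B2m encodes the light chain shared by all class I molecules. It had 12.62, 12.62 and 12.61 in the 18-month mice and 12.30, 12.22 and 12.42 in the 2-month mice. The 3 older mice were nearly identical, and all lay above the younger ones. The difference was small, 0.30 (SE 0.15, interval -0.07 to 0.67), or 1.23-fold, with a limma adjusted p of 0.764. Its other probe set (1452428_a_at) had 12.01, 12.13 and 12.04 at 18 months against 11.67, 11.55 and 11.81 at 2 months, a difference of 0.38 (SE 0.17). Neither B2m probe set is of the cross-matching kind.

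Psmb8, also known as LMP7, is the inducible subunit that takes the place of Psmb5 in the immunoproteasome. It had 7.24, 6.59 and 6.70 at 18 months against 5.34, 5.87 and 5.57 at 2 months. The lowest older mouse exceeded the highest younger one by more than the SD of either age. The difference was 1.25 (SE 0.24, interval 0.66 to 1.83), or 2.38-fold, and its limma adjusted p of 0.369 was the lowest of the members. Its second probe set (1444619_x_at) lay at background, with means of 2.59 at 18 months and 2.21 at 2 months and the ages apart.

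Psmb9, or LMP2, which takes the place of Psmb6, had a difference of similar size that rested on single animals. Its level was 7.11, 7.89 and 6.77 at 18 months against 6.78, 5.34 and 6.97 at 2 months. The ages overlapped, and 2-month replicate 2 stood well below the other 5 mice. The difference was 0.89 (SE 0.50, interval -0.30 to 2.08; limma adjusted p = 0.778). It was 0.38 without 2-month replicate 2 and 0.58 without 18-month replicate 2. Psmb10, or MECL-1, which takes the place of Psmb7, had 8.20, 8.48 and 8.44 at 18 months against 8.44, 8.25 and 9.18 at 2 months. The ages overlapped, with 2-month replicate 3 the highest mouse. The difference was -0.25 (SE 0.27, interval -0.91 to 0.41; limma adjusted p = 0.876), and 0.03 without that mouse.

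Psme1 encodes the alpha subunit of the activator PA28, which opens the proteasome's gate. It had 10.88, 10.24 and 10.04 at 18 months against 10.36, 11.12 and 10.32 at 2 months. One mouse of each age was high, and the other 4 lay close together. The difference was -0.21 (SE 0.32, interval -0.98 to 0.55; limma adjusted p = 0.916), and 0.05 without 2-month replicate 2. No probe set was named for its partner Psme2 alone.

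The standard subunits that the inducible ones replace had smaller differences. Psmb5 differed by 0.25 (SE 0.18), Psmb6 by -0.09 (SE 0.20) and Psmb7 by 0.04 (SE 0.19), and none passed the test. Subtracting the standard from the inducible subunit within each array gives a value that no scaling of whole arrays can move. For Psmb8 minus Psmb5 it was -3.76, -4.22 and -3.87 at 18 months and -5.13, -4.69 and -5.02 at 2 months. All 3 older mice lay above all 3 younger ones, by 0.99 on average (exact permutation p = 0.1, two-sided, the smallest that 3 mice against 3 allow; 0.15 adjusted over the 3 pairs). With the mean of all probe sets of each gene in place of the brightest this was 0.56. For Psmb9 minus Psmb6, the older mice had -4.33, -3.45 and -4.72 and the younger ones -4.75, -5.89 and -4.82. These also did not overlap, but by a margin of a few hundredths, and the mean difference was 0.99 (exact permutation p = 0.1, adjusted 0.15). After quantile normalization the ages overlapped (0.94, exact permutation p = 0.2). The difference was 0.63 without 18-month replicate 2 and 0.62 without 2-month replicate 2. For Psmb10 minus Psmb7 the ages overlapped, with -2.60, -2.24 and -2.08 at 18 months, -2.24, -2.16 and -1.64 at 2 months and a mean difference of -0.29 (exact permutation p = 0.5, adjusted 0.5).

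**Figure D3:**
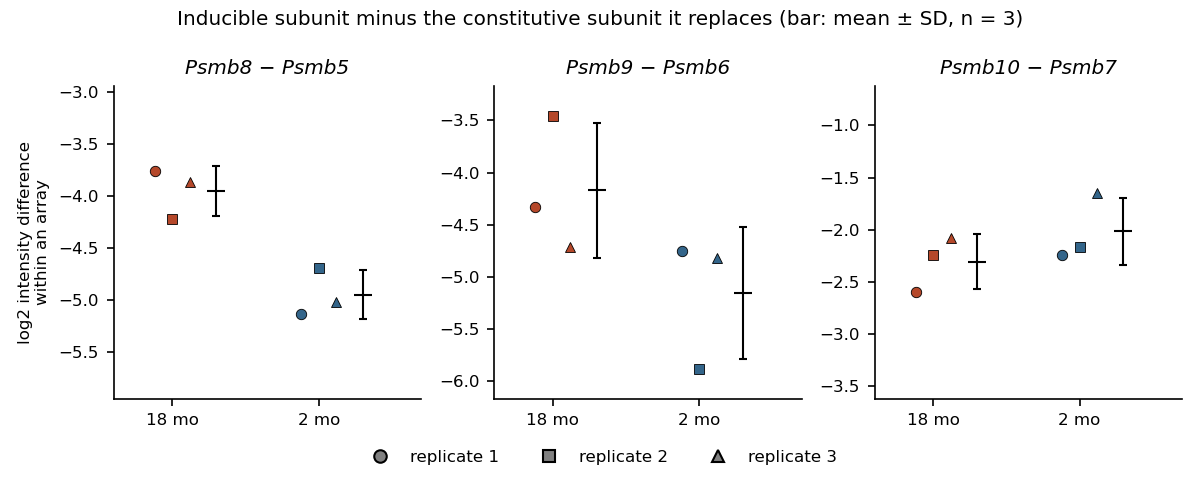
Log2 intensity of each inducible proteasome subunit minus that of the subunit it replaces within the same array (y axis), per mouse, with 18 months left and 2 months right. The bar is the mean ± SD (n = 3). The ages are apart for Psmb8 and, narrowly, for Psmb9, and overlap for Psmb10.

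The genes that move and load peptides had small differences. Tap1, which encodes one chain of the peptide pump, had 6.58, 7.46 and 6.78 at 18 months against 6.30, 6.62 and 6.82 at 2 months. Only 18-month replicate 2 lay above all younger mice. The difference was 0.36 (SE 0.28, interval -0.31 to 1.03; limma adjusted p = 0.833), and 0.10 without that mouse. The second Tap1 probe set above the filter (1448177_at) gave -0.07 (SE 0.17). The other 2 lay at background, 1 of them with the ages apart by hundredths. Tap2, the partner chain, had 6.50, 6.50 and 6.01 at 18 months against 6.14, 6.14 and 6.29 at 2 months. Its ages overlapped through 18-month replicate 3, the lowest of the 6 mice (difference 0.15, SE 0.20; limma adjusted p = 0.906). It was 0.31 without that mouse.

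Tapbp, whose product tapasin holds the heavy chain next to the pump, differed between probe sets. The brighter one had 11.32, 11.94 and 11.26 at 18 months against 11.38, 11.91 and 11.11 at 2 months. The mice of both ages covered the same range (difference 0.04, SE 0.29; limma adjusted p = 0.982), and the sign turned without 18-month replicate 2 (-0.17) or 2-month replicate 3 (-0.14). The dimmer one (1450378_at) had 8.69, 9.52 and 8.37 at 18 months against 8.17, 8.61 and 7.68 at 2 months. It lay higher at 18 months on average, by 0.71 (SE 0.37), with the ages overlapping. In both probe sets replicate 2 was the highest mouse of its age and replicate 3 the lowest.

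Psmb9, Tap1, Psmb8 and Tap2 are direct neighbours in this order on chromosome 17, in the RefSeq gene table. Psmb9 and Tap1 are read in opposite directions from 1 start region, and 225 bases of their 250-base windows are shared. The Tap1 window (chr17:34187306-34187555, plus strand, GRCm38.p6) is shown because both genes start from it, and none of the 4 searched sites marked in capitals above occurs in it.
Tap1: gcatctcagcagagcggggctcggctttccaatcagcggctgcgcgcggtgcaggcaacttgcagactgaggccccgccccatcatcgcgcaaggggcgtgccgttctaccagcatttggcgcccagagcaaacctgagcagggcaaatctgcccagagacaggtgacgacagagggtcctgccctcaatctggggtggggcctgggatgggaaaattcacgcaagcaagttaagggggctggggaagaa
Psmb9 and Tap1 both had 18-month replicate 2 as their highest mouse and 2-month replicate 3 as the highest of the younger ones. They differed at the low end, which was 2-month replicate 2 for Psmb9 and 2-month replicate 1 for Tap1. In Psmb8, the next gene along, 18-month replicate 2 was instead the lowest older mouse. Of the 10 members 7 lie on chromosome 17, while B2m is on chromosome 2, Psmb10 on chromosome 8 and Psme1 on chromosome 14.

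The members therefore did not rank the mice alike. Among older mice, replicate 1 was highest for 5 members (H2-D1, H2-K1, Tap2, Psmb8 and Psme1) and replicate 2 for the other 5. Replicate 3 was highest for 0 members and lowest for 7. Some of these orders rest on very small gaps. The older mice were nearly identical for B2m (12.62, 12.62 and 12.61), as were replicates 1 and 2 for Tap2 (both 6.50). Among younger mice, replicate 2 was highest for 5 members and replicate 3 for 5. Replicate 3 held the most neuron marker signal at each age, and it was the lowest mouse of its age for H2-D1, H2-K1, Tapbp and Psme1 at both ages. Whether the neuron signal had a part in these orders was not tested.

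**Figure D4:**
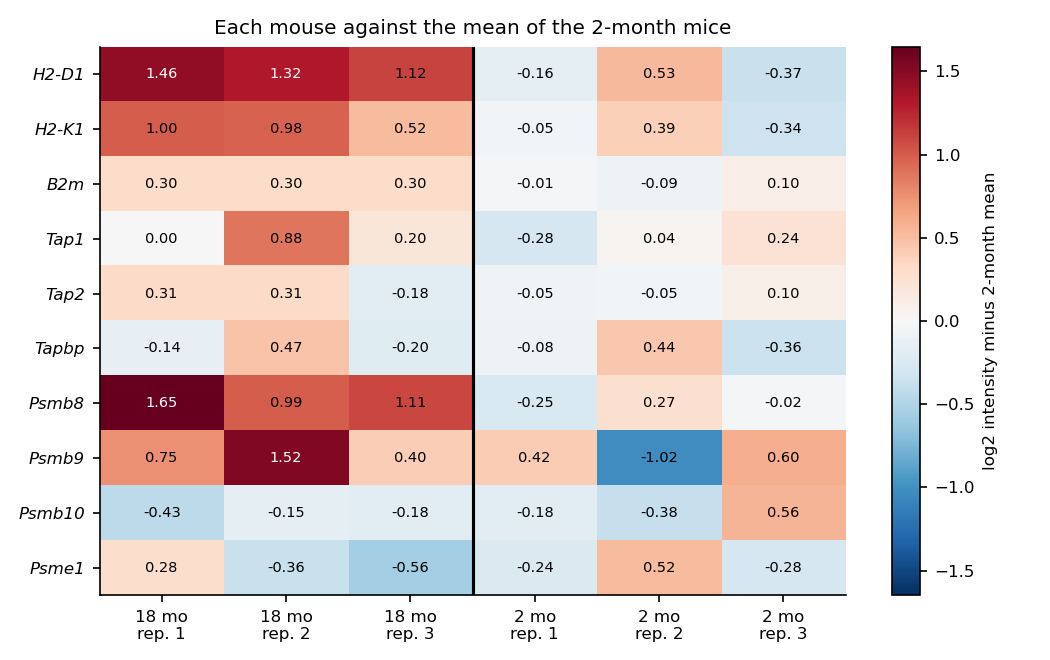
Log2 intensity of each gene (rows) in each mouse (columns, 18 months left of the line and 2 months right) minus that gene's mean over the 2-month mice. Red is above that mean and blue below it. H2-D1, H2-K1, B2m, Psmb8 and Psmb9 are above it in every 18-month mouse, and Psmb10 is below it in every one.

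The rest of the pathway was taken from lists of genes with known roles. Other class I heavy chains had 10 of 20 listed genes named alone on the array and 6 tested. Of these 6, 2 differences were above 0, 0 had an unadjusted p under 0.05 and the median was -0.29. Mr1, which shows vitamin metabolites to a subset of T cells, differed by 0.45 (SE 0.24) with the ages apart, or 0.27 without 2-month replicate 1. The nonclassical gene H2-T24 gave -0.53 (SE 0.30), or -0.26 without 18-month replicate 1, and Hfe, an iron regulator of class I shape, -0.36 (SE 0.23), or 0.19 with the mean of its probe sets. Peptide loading and trimming genes had 11 of 12 tested, 5 above 0 and a median of -0.08, with 1 gene higher at an unadjusted p under 0.05. That was Blmh, a cytosolic aminopeptidase. Its level was 11.47, 10.60 and 10.46 at 18 months against 9.50, 9.06 and 9.87 at 2 months. All older mice exceeded all younger ones (difference 1.37, SE 0.34; limma adjusted p = 0.552), and the mean of its probe sets gave 0.76. The leucine aminopeptidase gene Lap3 gave -0.53 (SE 0.29) and Tapbpl, a relative of tapasin that edits peptides, 0.60 (SE 0.39). The mean of its probe sets gave 0.21 for Tapbpl, which was 0.22 without 18-month replicate 2 and 1.00 without 18-month replicate 1. Lap3 was -0.30 without 2-month replicate 2.

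The constitutive core of the proteasome had all 14 genes tested, 7 above 0 and 7 below. The median was -0.03, and 0 had an unadjusted p under 0.05. Its smallest p belonged to Psmb5, given above, Psma5 (-0.33, SE 0.26, and -0.068 without 2-month replicate 1) and Psmb2 (-0.26, SE 0.23). The regulatory particle that caps the core had 20 of 20 tested, 10 above 0, a median of 0.03 and 0 at an unadjusted p under 0.05. Psmd7 gave -0.44 (SE 0.23), or -0.067 with the mean of its probe sets. The ATPase gene Psmc5 gave -0.35 (SE 0.18) with the ages apart, lower at 18 months, and the assembly chaperone gene Psmd5 -0.50 (SE 0.28). Activators and assembly factors had 9 of 10 tested, 3 above 0, a median of -0.07 and 0 at an unadjusted p under 0.05. Psme3, another activator, gave 0.35 (SE 0.37), and the assembly chaperone genes Psmg3 and Psmg4 gave -0.40 (SE 0.43) and -0.21 (SE 0.27). With the mean of its probe sets Psme3 gave 0.064, and Psmg3 gave -0.09 without 2-month replicate 1.

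Genes that control class I transcription and carry interferon signals had 22 of 26 tested, 13 above 0, a median of 0.11, and 1 higher and 0 lower at an unadjusted p under 0.05. That 1 was Irf9, the DNA-binding part of the type I interferon complex. Its level was 7.17, 7.36 and 7.34 at 18 months against 6.95, 6.25 and 6.30 at 2 months. The older mice lay above the younger ones (difference 0.79, SE 0.23; limma adjusted p = 0.613). Rfxank, a subunit of the RFX complex that binds class I and class II promoters, gave 0.45 (SE 0.19) with the ages apart, but 0.032 with the mean of its probe sets. Nfyb, part of the CCAAT-binding factor, gave -1.24 (SE 0.59), or -0.68 with that mean and -0.75 without 2-month replicate 1. Irf1, an interferon-gamma target that switches on class I genes, gave -0.01 (SE 0.33). Nlrc5, the class I transactivator, lay below the filter and was not tested. It had 3.08, 3.58 and 3.49 at 18 months against 2.70, 2.78 and 2.77 at 2 months, with the ages apart but near background.

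MHC class II genes, which present peptides taken up from outside the cell, had 5 of 10 tested, 4 above 0 and 4 at an unadjusted p under 0.05. The class II chain genes H2-Aa (3.18, SE 0.24) and H2-Ab1 (2.61, SE 0.41) and the invariant chain gene Cd74 (2.41, SE 0.41) had larger differences than any of the 10 members, although that contrast was not tested. With the mean of its probe sets H2-Aa differed by 1.54 (limma adjusted p = 0.136) and H2-Ab1 by 2.42 (limma adjusted p = 0.044). The limma adjusted p of H2-Aa was 0.0540, and 0.034 with the 60th percentile filter. A list of 19 genes covered receptors that read class I molecules and ligands of NK cells. Of these, 12 were named alone on the array, and only Cd8a was bright enough to test. It had 6.90, 8.55 and 5.11 at 18 months against 5.16, 5.26 and 5.33 at 2 months. It was high in 2 older mice and at the level of the younger ones in the third (difference 1.60, SE 0.79), and the difference was 0.75 without 18-month replicate 2 and 2.47 without 18-month replicate 3.

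**Figure D5:**
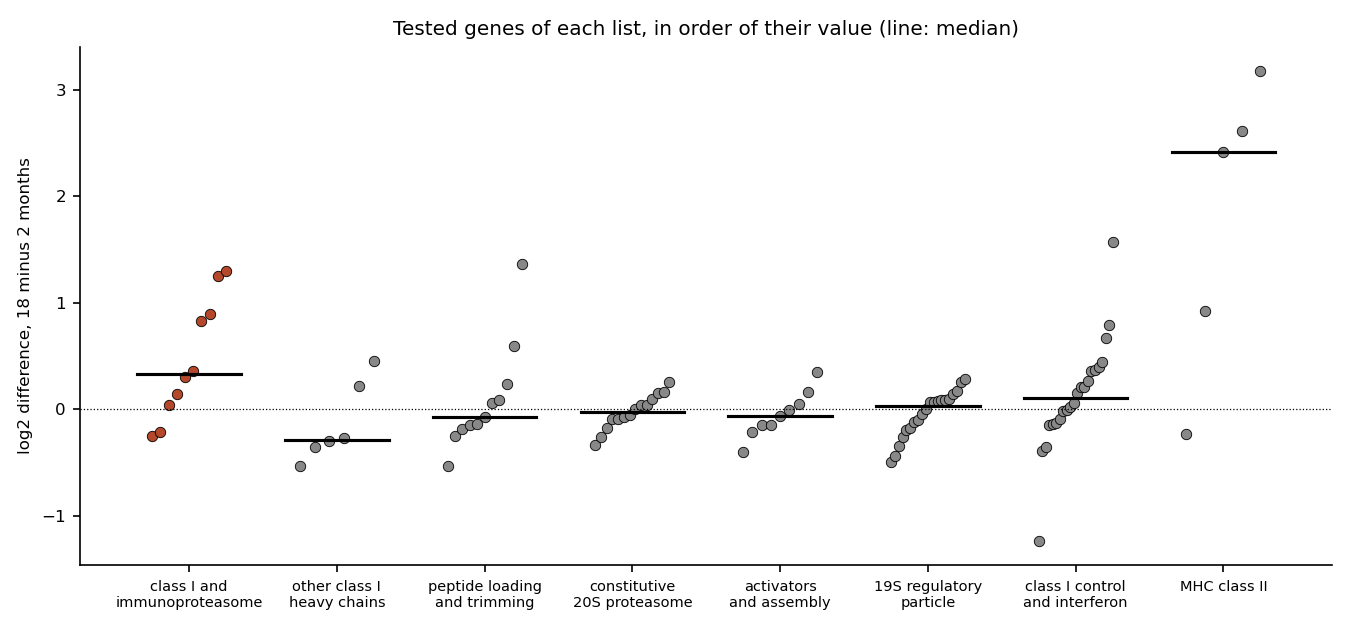
Log2 difference, 18 minus 2 months (y axis), of every tested gene of 8 gene lists, sorted within its list, with the list's median as a line. The 10 class I and immunoproteasome genes (red) have a median of 0.33, the constitutive proteasome core -0.03 and MHC class II genes 2.41.

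Marker lists of other cell types were measured beside the members, and none of their genes passed the test. Of 15 macrophage markers 13 were tested and 11 of these differences were above 0, 4 of them at an unadjusted p under 0.05. The summed linear intensity of all 15 was 4473 to 6118 at 18 months and 3208 to 5274 at 2 months. Among them Ms4a7, a membrane protein gene of these cells, differed by 2.04 (SE 0.35), the lysozyme gene Lyz2 by 1.36 (SE 0.31) and Aif1 by 1.34 (SE 0.44), while Tyrobp (-0.46, SE 0.37) and C1qa (-0.21, SE 0.61), named after their values were seen, had differences below 0. Adgre1 and Itgam, which also define macrophages, lay below the filter. Of 15 T and NK cell markers 12 were named on the array and 3 were tested, and the T cell receptor complex genes Cd3d, Cd3e and Cd3g lay below the filter. Besides Cd8a these were Cd4 (-0.13, SE 0.16) and Prf1 (-0.17, SE 0.17). The summed intensity of the 12 was 361 to 716 at 18 months and 377 to 446 at 2 months. Of 9 endothelial markers 7 were tested, and the sums of all 9 were 557 to 930 at 18 months and 609 to 921 at 2 months. Of the 7 ependymal markers 0 differences were above 0, with sums of 5444 to 6526 at 18 months and 6552 to 11129 at 2 months. The highest sum was that of 2-month replicate 2, where Ak7 alone had 12.39 against 9.17 and 8.99 in the other younger mice. Of 10 stroma and pericyte markers 8 were below 0, while Pdgfra differed by 1.95 (SE 0.22). Among 7 oligodendrocyte markers 6 were above 0, but the median of the 7 was only 0.07. Their sums overlapped, with 2692 to 7027 at 18 months and 1953 to 7413 at 2 months. Mog differed by 1.75 (SE 0.33) with the ages apart, while Mbp, named after its value was seen, differed by 0.02 (SE 0.57). Of 3 tested B and plasma cell markers 1 was above 0. The part of any of these cell types in the class I levels was not tested.

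As a description of likeness, each of 12058 tested genes was set against the mean profile of the 10 members over the 6 arrays, with members and genes that carry only clone or model names left out. The genes most like it, other than members, were Cdk5rap2, a centrosome protein gene (Pearson r = 0.985), and Pigm, which encodes an enzyme of membrane anchor synthesis (r = 0.985). They were followed by Plekhg2 (r = 0.985), the creatine transporter gene Slc6a8 (r = 0.985), Trappc3 (r = 0.974), the creatine kinase gene Ckb (r = 0.973), the Wnt inhibitor gene Sfrp1 (r = 0.973), Ndufb9 of respiratory complex I (r = 0.972), Trmo (r = 0.971) and Ap1m1 (r = 0.969). None of the 10 is a class I gene, which says little, since the members were left out and only 6 other class I heavy chain genes were tested. Of the genes compared, 99 had r above 0.9, and the points are only 6 arrays that share their normalization. The largest difference among these genes was that of Pigm, 0.92. Its level was 7.23, 7.42 and 6.35 at 18 months against 5.81, 6.09 and 6.34 at 2 months.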

How the data were processed

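Gene expression was measured on Affymetrix mouse arrays in 3 mice aged 18 months and 3 aged 2 months. Per the labels' protocols, RNA from a miRNeasy extraction went through Nugen Pico amplification before biotin labelling, a step that may alter the levels of dim transcripts. The authors deposited RMA intensity values for 45101 probe sets, per the submitters' processing notes, with no version given in the sources used here. The intensities ran from 2.47 to 26821, a linear scale, and their log2 was taken. Array medians lay between 5.56 and 5.65, and 0 pairs of arrays were identical.

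Of 45037 probe sets that are not controls, 34945 carried 1 gene symbol in the platform annotation, 932 several and 9160 none. Of the 34945, 34741 were found by gene identifier in the RefSeq table, and 0 symbols changed. The brightest probe set by the mean over all arrays stood for a gene, and genes at or above the 40th percentile of all such means (log2 4.92) were tested. For 27 bacterial control probe sets the highest mean was 4.51. Ages were compared with limma 3.58.1 in R 4.3.3 (two-sided, no covariates, 6.61 degrees of freedom), with p adjusted by Benjamini-Hochberg over all 12681 genes, threshold 0.05. A second fit covered the 27022 probe sets above the filter. The fit over genes was tested on simulated data, and the fit over probe sets was not. Subunit pairs were compared by an exact permutation test over arrays, and precision is limited by how few arrays there are.

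The members, lists and tests were chosen with earlier results of these data known, and the promoter motifs after the windows were seen. Most genes outside the members were named by rule: the standard proteasome subunits, set regulators, up to 3 genes of smallest p per list, and the 10 of most similar profile. Outside this rule, Tyrobp, C1qa, Mbp, H2-DMa and the untested Adgre1, Itgam, Cd3d, Cd3e and Cd3g were named with their values known. The settings varied were the filter (none, or the 60th percentile), averaging of probe sets, quantile normalization, median centring, a replicate block, array weights, a prior variance trend, an ordinary 2-sample test, and leaving out mice.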

Additional observations from a re-analysis of the deposited data

How the results depend on the processing

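All 10 members missed the threshold under each alternative in which they were tested, and 7 of them kept their direction in all of these (Tapbp, Psmb10 and Psme1 did not). Members higher at an unadjusted p under 0.05 numbered 2 to 4 and members with separate ages 3 to 6, and the members' median lay between 0.20 and 0.42. By that p, 2 of 8 tested members were higher with the 60th percentile filter (4.33% of all genes) and with averaged probe sets (4.17%). With the prior variance trend 4 of 10 were higher (4.08% of all genes). The 6 separate members came without 18-month replicate 3, where 12.7% of all genes tested were separate with 18 months higher, and without 2-month replicate 2 as well (21.2%). With any 1 mouse left out, that share was 11.6% to 12.9%. With the mean of its 9 probe sets H2-D1 differed by 0.78. Psmb8 could not be tested with the mean of its probe sets or with the 60th percentile filter, since it then lay below the filter, nor could Tap1 with the mean or Tap2 with the stricter filter. Over all genes, 0 were called either way with each mouse left out in turn, with no filter, with quantile normalization, with the replicate block and with the ordinary test. Genes called higher and lower were 3 and 1 with the 60th percentile filter and with array weights, 4 and 1 with each array centred on its median, 5 and 0 when probe sets were averaged, and 2 and 0 with the prior variance trend. The cause of these differences was not tested.

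The replicate numbers gave no clear sign of pairing the mice. Deviations from the age means correlated at -0.02, 0.02 and 0.17 for numbers 1 to 3, and 3 of 6 arrays correlated best with their own number. With so few mice these values cannot decide whether the numbers mark pairs. With the replicate block the adjusted p was 0.579 for H2-D1 and 0.632 for Psmb8, and the median of the members stayed at 0.33. Leaving out 1 mouse, or 18-month replicate 3 and 2-month replicate 2 together, Tapbp ranged from -0.17 to 0.39, Psmb10 from -0.48 to 0.027, Psme1 from -0.46 to 0.22, Psmb6 from -0.27 to 0.042, Psmb7 from -0.079 to 0.13, Psmb2 from -0.43 to 0.0075, Irf1 from -0.30 to 0.36, Psme3 from -0.011 to 0.62 and Psmg4 from -0.49 to 0.056. Hfe gave 0.19 with the mean of all probe sets.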

Other observations

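In 18-month replicate 2 several genes outside the members were highest together with Tap1 (7.46), Tapbp (11.94) and Psmb9 (7.89). Tapbpl had 7.62 there against 6.07 and 6.91 in the other older mice, the proteasome activator gene Psme3 10.44 against 9.55 and 9.18, and Cd8a 8.55 against 6.90 and 5.11. In the same mouse H2-DMa, a class II loading gene, lay between the other older mice (6.56 against 6.83 and 6.46), and Psmb8 was the lowest of the older mice at 6.59. Tapbpl, Psme3, Cd8a and H2-DMa were set together here after their values were seen. How many of all genes were highest in this mouse was not counted.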
